A study of Mus musculus with 15 samples.

Results

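Txnip, Arrdc4, Ucp2 and Slc38a1 are 4 of the 54418 genes in a count table of mouse colon cancer organoids. They were taken by their Ensembl identifiers, and were chosen by their values in the metastasis libraries, for a rise of Txnip and a stepwise fall of Ucp2 over 3 rounds of metastasis. The steps between metastasis rounds are therefore given for these genes as a description, with no test of their own.

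The study carried organoids through repeated transplantation into the colon. Organoids were made again from the liver metastases of rounds 1, 2 and 3 (Met1, Met2 and Met3) and, as controls, from the primary tumours of rounds 2 and 3 (Primary2 and Primary3). All 5 groups carry the genotype AKP, which the labels do not spell out, all recipients were C57Bl6 mice, and each group has 3 libraries. Poly(A)-selected RNA of the organoids was sequenced, so the values are those of cells back in culture and not of tumours in the liver or colon. The labels do not say whether the replicates of a group are separate mice, lines or cultures, so the spread behind each p-value may be technical, and Met1 has no primary group of its own round.

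Txnip and Arrdc4 encode alpha-arrestins, adaptor proteins that bring membrane proteins to ubiquitin ligases. Both restrain glucose uptake by promoting internalisation of the transporter GLUT1, and TXNIP also binds and inhibits thioredoxin. Both genes are classic targets of the glucose-sensing Mondo factors, MondoA (gene Mlxip) and ChREBP (gene Mlxipl), which bind DNA with their partner MLX at E-box-like elements. Ucp2 encodes a carrier of the inner mitochondrial membrane that exports intermediates of the citric acid cycle and was first described as an uncoupling protein. Slc38a1 encodes SNAT1, a sodium-coupled importer of glutamine and other small neutral amino acids at the plasma membrane.

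The sequences just upstream of the genes' start sites are shown for the pair of alpha-arrestins, because the Mondo factors are known to act there. RefSeq (GRCm38.p6) gave such a sequence for 3 of the 4 genes. The 250 bases before the start of Txnip lie at chr3:96557707-96557956 on the plus strand, and those before the start of Arrdc4 at chr7:68749239-68749488 on the minus strand. Both are printed 5′ to 3′, ending at the base before the start, with matches to CACGTG or CACGAG in capitals.
Txnip: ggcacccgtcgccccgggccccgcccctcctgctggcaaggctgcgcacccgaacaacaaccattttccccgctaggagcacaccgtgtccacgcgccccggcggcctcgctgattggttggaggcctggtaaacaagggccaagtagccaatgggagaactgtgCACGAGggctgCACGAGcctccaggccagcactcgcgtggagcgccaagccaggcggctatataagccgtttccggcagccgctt
Arrdc4: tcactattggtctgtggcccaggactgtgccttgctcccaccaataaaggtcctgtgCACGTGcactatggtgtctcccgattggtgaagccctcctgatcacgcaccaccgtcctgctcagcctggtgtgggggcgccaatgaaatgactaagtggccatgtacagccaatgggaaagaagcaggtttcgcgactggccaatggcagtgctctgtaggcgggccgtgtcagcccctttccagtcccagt

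In the Txnip sequence, 2 copies of CACGAG stand 5 bases apart, from -85 to -69 counted from the start. Searched on both strands, a spaced pattern of CACGNG, any 5 bases and CACGNG again was found in 15 of 32851 promoter windows of the same length, or 0.0457%. Single CACGAG was found in 5.37% of windows, and its matches overlap those of the spaced pattern. The Arrdc4 sequence holds 1 CACGTG, at -193 to -188, a motif found in 6.02% of windows, and no copy of the spaced pattern. It also holds 6 copies of CCAAT (both strands), against 2 in the Txnip sequence. One or more copies of CCAAT were found in 33.8% of windows, and 3 or more in 2.79%. The Ucp2 window held no match to these motifs. A match of letters is a description and does not show that a factor binds.

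Txnip (ENSMUSG00000038393) spans 96557957 to 96561883 on the plus strand of chromosome 3 (GRCm38). Arrdc4 (ENSMUSG00000042659) spans 68736995 to 68749241 on the minus strand of chromosome 7, and Ucp2 (ENSMUSG00000033685) spans 100493337 to 100502020 on the plus strand of the same chromosome. Slc38a1 (ENSMUSG00000023169) spans 96571418 to 96642913 on the minus strand of chromosome 15. The exons of Txnip share 606 bases with the antisense gene Gm15441, and those of Ucp2 share 305 bases with Dnajb13 on the other strand. Whether the authors' counting used strand is not given in the sources used here, so reads from the shared bases cannot be told apart with certainty. In counts per 1000000 counts (CPM), Gm15441 had 0.0674 to 2.26 in single libraries and Dnajb13 at most 0.795, far below the levels of Txnip and Ucp2. Gm15441 was itself higher in metastasis than in primary organoids (log2 change 1.91, SE 0.47, edgeR adjusted p = 0.00906).

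Libraries held 14122203 to 21306543 counts. Epithelial markers summed to 11012 to 13875 CPM in Met1, 5775 to 14958 in Met2 and 11713 to 15431 in Met3. Sums in primary libraries were 5843 to 8501 CPM (Primary2) and 6980 to 8224 CPM (Primary3), and 4 of the 9 genes were higher and 1 lower in metastasis than in primary organoids of rounds 2 and 3, where 30.4% of all genes were called. Leukocyte markers summed to 9.03 to 30.6 CPM outside Primary3 and to 37.3 to 41.7 CPM in Primary3, and Cd3g, Cd4, Adgre1 and Lyz2 were at 0 in every library. In the same comparison Csf1r was lower (log2 -4.46, SE 0.69, edgeR adjusted p = 0.000680) and Cd68 higher (log2 0.97, SE 0.30, edgeR adjusted p = 0.0266). Cd68 lost its call without any 1 of Met2 replicate 2, Met3 replicate 2 and Primary2 replicates 1 and 3 (range over alternatives 0.00606 to 0.0602). Stromal and endothelial markers summed to 0.839 to 46.7 CPM, the top value being that of Met1 replicate 2, where Vwf alone reached 46.1 CPM, and Lum and Kdr were at 0 throughout. Vwf was lower in Met3 than in Met1 (log2 -4.97, SE 0.88, edgeR adjusted p = 0.00312), a call lost under limma-voom (0.0853, the highest over alternatives). Hepatocyte markers summed to 0.451 to 30.3 CPM, the top value being that of Primary2 replicate 1, where Apob reached 28.8 CPM, Ahsg was at 0 in every library and Serpina1a in 13 of 15. Apob was lower in metastasis than in primary organoids, with 1 count in Met2 against 649 in Primary2 and 2 counts in Met3 against 40 in Primary3 (edgeR adjusted p = 0.00280). Alb was lower in Met3 (1 count) than in Met1 (184 counts; edgeR adjusted p = 0.0119), a call lost without Met3 replicate 1 (0.0519, range over alternatives 0.00422 to 0.0519). The part of these markers in the results below was not tested. The ribosomal RNA gene CT010467.1 took 6.24 to 7.52% of counts in Met2 and 3.74 to 3.83% in Primary2, and 3.38 to 4.09% in Met3 against 3.53 to 7.03% in Primary3. Met2 replicate 1 stood apart, with correlations across genes of 0.907 and 0.894 with the other Met2 libraries, where all other pairs of replicates reached 0.956 to 0.976. In bulk libraries, fewer cells with a transcript and less of it per cell cannot be told apart.

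Txnip was highest in Met3 and lowest in the primary organoids, but its course over the rounds was not a steady rise. In CPM scaled by TMM factors, replicates 1, 2 and 3 had 121, 136 and 104 in Met1, 68.8, 81.0 and 85.4 in Met2, and 415, 294 and 127 in Met3. They had 46.5, 57.2 and 49.0 in Primary2 and 49.9, 50.3 and 67.3 in Primary3. All 3 Met2 libraries lay below all 3 Met1 libraries, where 32.7% of genes showed no overlap in either direction. All 3 Met3 libraries lay above all of Met2, where 15.4% showed none. The third Met3 library, at 127 CPM, fell inside the range of Met1, so those groups overlapped, while 44.5% of genes did not overlap there.

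Txnip averaged 279 ± 145 CPM in Met3, 120.3 ± 15.7 in Met1, 78.4 ± 8.58 in Met2, 55.9 ± 9.93 in Primary3 and 50.9 ± 5.59 in Primary2 (SD, n = 3 each). In that order, the neighbours Met3 and Met1 overlapped, as did Primary3 and Primary2. The spread in Met3, 52.0% of its mean, was the widest of the 5 groups for this gene. Described by fitted log2 changes, Met2 stood at -0.62 relative to Met1, Met3 at 1.83 relative to Met2 and Met3 at 1.21 relative to Met1.

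**Figure D1:**
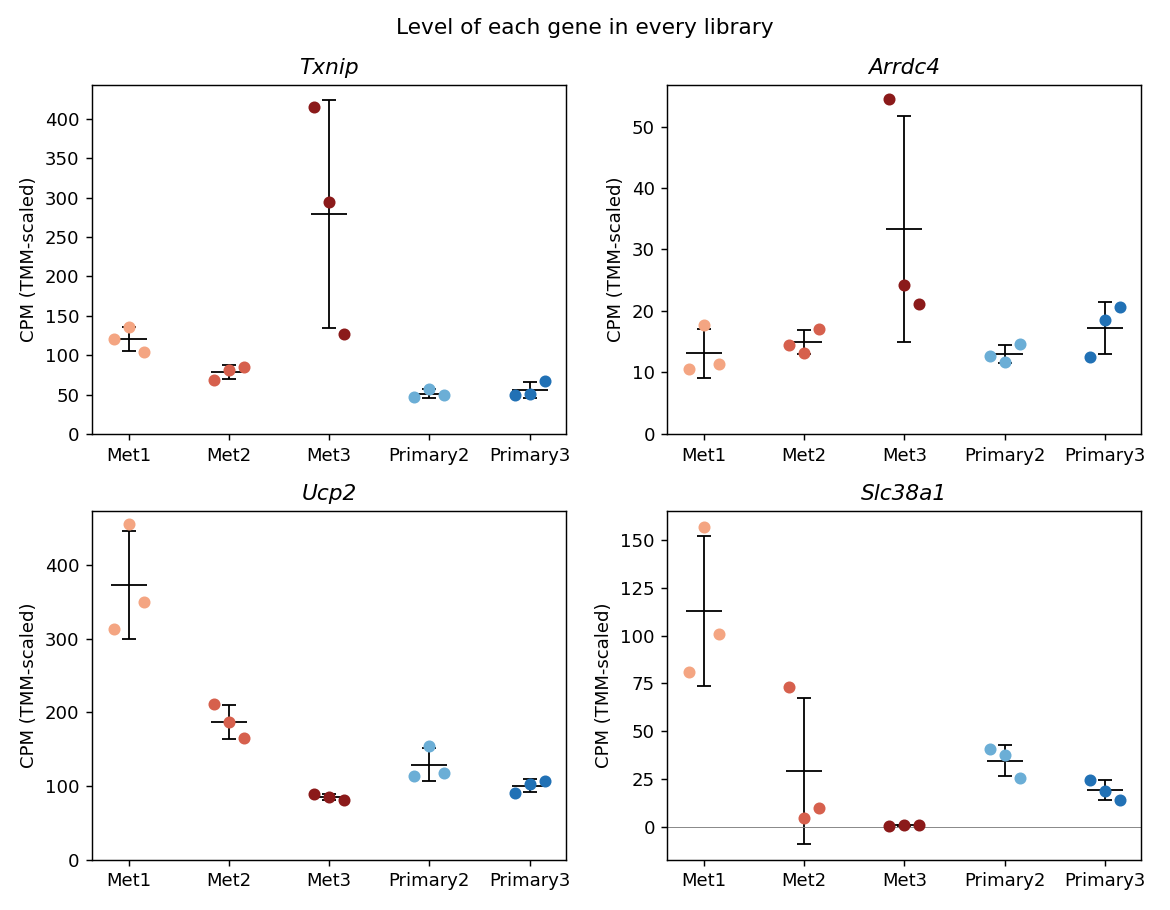
Expression of Txnip, Arrdc4, Ucp2 and Slc38a1 in CPM on linear axes, with 1 point for each of the 3 libraries of a group, a horizontal line at the group mean and error bars of 1 SD. Txnip reaches 415 CPM in a Met3 library, while Ucp2 stays between 81.0 and 89.3 CPM there and Slc38a1 between 0.754 and 1.21 CPM.

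Arrdc4 had overlapping levels in 4 of the groups and its highest values in Met3. Its replicates 1, 2 and 3 had 10.5, 17.7 and 11.3 CPM in Met1, 14.5, 13.2 and 17.0 CPM in Met2, and 54.5, 24.2 and 21.1 CPM in Met3. They had 12.6, 11.7 and 14.6 CPM in Primary2 and 12.5, 18.5 and 20.6 CPM in Primary3. Every Met3 library was above every other library, though the lowest Met3 value, 21.1 CPM, stood close to the highest of Primary3, 20.6 CPM. Met3 averaged 33.3 ± 18.4 CPM, and the other groups averaged 13.1 ± 3.97 in Met1, 14.9 ± 1.97 in Met2, 13.0 ± 1.48 in Primary2 and 17.2 ± 4.23 in Primary3 (SD, n = 3 each). All neighbours below Met3 overlapped. Described by fitted log2 changes, Met2 stood at 0.18 relative to Met1, where Txnip stood at -0.62, and Met3 at 1.16 relative to Met2.

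The pair of alpha-arrestins ranked the Met3 libraries alike, but differed over the other groups. Met3 replicate 1 was the highest library for both genes and Met3 replicate 3 the lowest of that group for both. Over the 15 libraries, which share their group labels and library preparation, their log2 CPM had a Pearson r of 0.71 and a Spearman rho of 0.43. After each library was centred on its group mean, r was 0.70. The Met3 libraries weigh most in that value, since their spread was the widest for both genes (52.0% of the mean for Txnip and 55.4% for Arrdc4). The ratio of Txnip to Arrdc4 CPM averaged 9.50 ± 1.96 in Met1, 5.30 ± 0.757 in Met2 and 8.58 ± 3.18 in Met3, and 3.98 ± 0.800 in Primary2 and 3.33 ± 0.646 in Primary3 (SD, n = 3 each). The lowest ratio in a metastasis library, 4.73 in Met2, lay just under the highest in a primary library, 4.88 in Primary2.

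**Figure D2:**
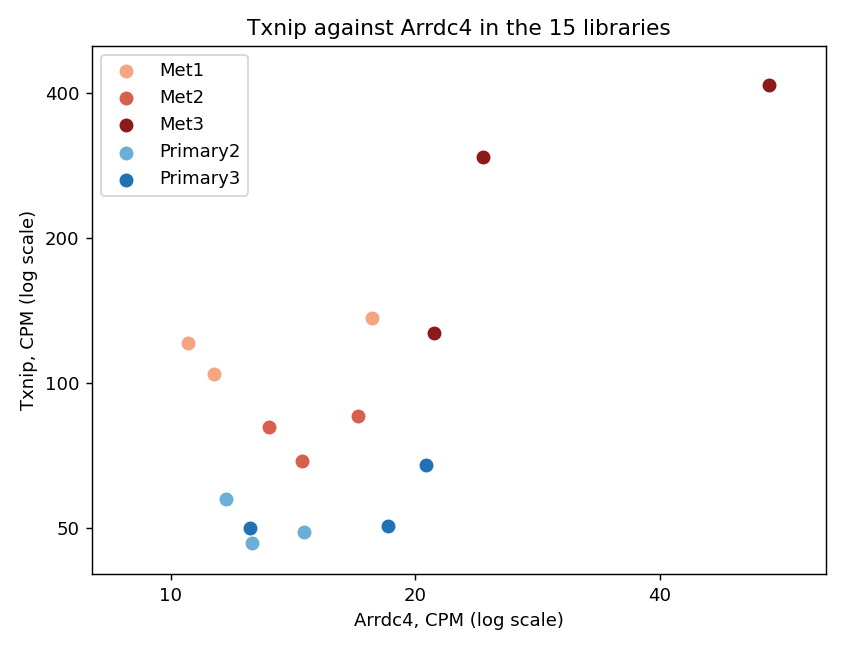
Txnip against Arrdc4 in each of the 15 libraries, both in CPM on log axes, coloured by group. Met3 libraries lie at the upper right, with Arrdc4 between 21.1 and 54.5 CPM, and Met1 libraries lie at primary levels of Arrdc4 but at 104 to 136 CPM of Txnip.

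Ucp2 was lower in each successive metastasis round. Replicates 1, 2 and 3 had 313, 455 and 350.3 CPM in Met1, 211, 187 and 165 CPM in Met2, and 89.3, 85.4 and 81.0 CPM in Met3. They had 114, 154 and 118 CPM in Primary2 and 90.8, 103 and 107 CPM in Primary3. No 2 groups overlapped, and the Met3 libraries lay below every library of the other groups. Over all genes and in either direction, 44.5% had no overlap in Met3 against Met1 and 44.4% in Met3 against Primary3. The share was 32.7% in Met2 against Met1, 29.6% in Met2 against Primary2 and 16.7% in Primary3 against Primary2. Means ran from 373 ± 73.8 CPM in Met1 through 187 ± 23.1 in Met2, 129 ± 22.1 in Primary2 and 100.5 ± 8.60 in Primary3 to 85.3 ± 4.16 in Met3 (SD, n = 3 each). The Primary3 and Met3 ranges were only 1.51 CPM apart. The fitted log2 change was -0.99 for Met2 relative to Met1, -1.14 for Met3 relative to Met2 and -2.13 for Met3 relative to Met1. Of the 14925 genes tested, 164 (1.10%) fell without overlap at both steps. Ucp2, chosen for such a fall, is among them, and so is Slc38a1, for which no reason of its own is stated. Both were among the genes chosen by their values in the metastasis libraries.

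Slc38a1 was the gene that differed most between groups and, in Met2, between replicates. Replicates 1, 2 and 3 had 80.8, 157 and 101 CPM in Met1, 72.9, 4.58 and 10.1 CPM in Met2, and 0.754, 0.981 and 1.21 CPM in Met3. They had 40.8, 37.6 and 25.6 CPM in Primary2 and 24.7, 18.8 and 14.1 CPM in Primary3. Met2 replicate 1, the library that stood apart across genes, lay just below the lowest Met1 library, while the other Met2 libraries lay below all primary ones. Met3 held 54 counts of the gene in its 3 libraries together, against 6785 in Met1. Means were 113 ± 39.3 CPM in Met1, 29.2 ± 38.0 in Met2, 0.980 ± 0.226 in Met3, 34.7 ± 8.01 in Primary2 and 19.2 ± 5.30 in Primary3 (SD, n = 3 each). Met2 overlapped both primary groups, and Met1 and Met3 stood clear of their neighbours. The fitted log2 change was -1.95 for Met2 relative to Met1, -4.89 for Met3 relative to Met2 and -6.84 for Met3 relative to Met1.

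Divided by exon length, the order of the 4 genes changed between the first and last metastasis round. The length was the union of all annotated exons, 3123 bases for Txnip, 4039 for Arrdc4, 6989 for Ucp2 and 17236 for Slc38a1. Such a union can exceed a single transcript, so levels and percentiles compared between genes depend on it. Mean levels in Met3 were 89.2 CPM per kilobase for Txnip, 12.2 for Ucp2, 8.24 for Arrdc4 and 0.0569 for Slc38a1. In Met1 they were 53.4 CPM per kilobase for Ucp2, 38.5 for Txnip, 6.55 for Slc38a1 and 3.25 for Arrdc4. Txnip thus stood above Ucp2 in Met3 and below it in Met1. Among the genes tested, the per-kilobase level of Txnip lay at percentile 95.6 in Met3 and 90.7 in Met1, and that of Slc38a1 at 4.22 in Met3 and 60.5 in Met1.

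Metastasis organoids were then compared with primary organoids of the same round. The metastasis libraries are those that guided the choice of genes, so these tests are not independent support for it. Genes were tested with edgeR's quasi-likelihood test over all 14925 genes, and one was called at a Benjamini-Hochberg adjusted p under 0.05. Pooling rounds 2 and 3, 6 metastasis libraries against 6 primary ones, 30.4% of genes were called.

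Txnip was 2.77-fold higher in metastasis organoids of rounds 2 and 3 than in primary ones (log2 change 1.47, SE 0.22, edgeR adjusted p = 0.000549). Its range was 68.8 to 415 CPM in Met2 and Met3 together and 46.5 to 67.3 CPM in Primary2 and Primary3, so it was higher in 6 of 6 libraries, a separation in either direction that 12.2% of genes showed. In round 3 the change was 4.98-fold (log2 2.32, SE 0.32, edgeR adjusted p = 0.00112), in a comparison in which 19.1% of genes were called. In round 2 it was 1.54-fold, with no overlap between groups but no call (log2 0.62, SE 0.31, edgeR adjusted p = 0.201). There 29.6% of genes had no overlap and 11.8% were called. The change in round 3 exceeded that in round 2 by 1.69 on the log2 scale (SE 0.44), with an unadjusted p of 0.00191 in edgeR's test but an adjusted p of 0.263. That difference contains the step from Met2 to Met3, and the genes were chosen by their values in those libraries. Its p-values therefore favour the chosen genes and lend no support to the choice. Under edgeR 0 genes were called for this difference and 1817 had an unadjusted p under 0.05. DESeq2 called 224 genes, Txnip (adjusted p = 0.0215) and Slc38a1 (adjusted p = 0.00973) among them, and limma-voom called 0.

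Arrdc4 was not called in any comparison with primary organoids. In round 3 its log2 change was 0.95 (SE 0.33, 95% interval 0.23 to 1.67, edgeR adjusted p = 0.0622), with no overlap between groups, as for 44.4% of genes. That value depended on single libraries and on the method: without Met3 replicate 3 the adjusted p was 0.0341 and under DESeq2 0.0298, and without Met3 replicate 1 the log2 change was 0.44. Leave-one-out adjusted p-values ran from 0.0341 to 0.293. In round 2 the log2 change was 0.20 (SE 0.33, edgeR adjusted p = 0.736). Over both rounds it was 0.58 (SE 0.24, edgeR adjusted p = 0.0798), and 0.70 without Met3 replicate 3 (adjusted p = 0.0369) in a leave-one-out range of 0.0369 to 0.184.

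Ucp2 was higher in Met2 than in Primary2 and did not differ beyond the threshold in round 3. The round 2 change was 1.46-fold (log2 0.54, SE 0.16, edgeR adjusted p = 0.0426). That call was lost without Met2 replicate 1 (adjusted p = 0.0983) or 2 (0.0684), without Primary2 replicate 1 (0.133) or 3 (0.137), and with the share of ribosomal RNA as a covariate (0.424), in a leave-one-out range of 0.0335 to 0.137. In round 3 the log2 change was -0.24 (SE 0.16, 95% interval -0.58 to 0.10, edgeR adjusted p = 0.307). The rounds thus gave values of opposite sign, and over both the log2 change was 0.15 (SE 0.11, edgeR adjusted p = 0.320). Their difference, -0.78 (SE 0.22), had an unadjusted p of 0.00398 in edgeR's test and an adjusted p of 0.276. It too contains the step from Met2 to Met3 that guided the choice of genes.

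Slc38a1 was 19.4-fold lower in Met3 than in Primary3 (log2 change -4.28, SE 0.87, edgeR adjusted p = 0.00654). For this gene 3 of 3 Met3 libraries lay below all Primary3 libraries. In that comparison 44.4% of genes had no overlap in either direction and 19.1% were called, beside 30.4% called over both rounds. For Slc38a1 limma-voom gave an adjusted p of 0.0503, and leave-one-out fits 0.0169 to 0.0343. In round 2 the log2 change was -0.25 (SE 0.70, 95% interval -1.75 to 1.26, edgeR adjusted p = 0.854), a value set by Met2 replicate 1. Without that library it was -2.25 (adjusted p = 0.00486), without Met2 replicate 2 it was 0.28 (adjusted p = 0.794) and without Met2 replicate 3 it was 0.19 (adjusted p = 0.905), in a leave-one-out range of 0.00486 to 0.947. Over both rounds the gene was 4.80-fold lower in metastasis organoids (log2 -2.26, SE 0.55, edgeR adjusted p = 0.00868), with Met2 replicate 1 above all 6 primary libraries. Without Met2 replicate 1 the log2 change was -3.26 (adjusted p = 2.15e-05), the lowest of the leave-one-out range that ended at 0.0278.

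**Figure D3:**
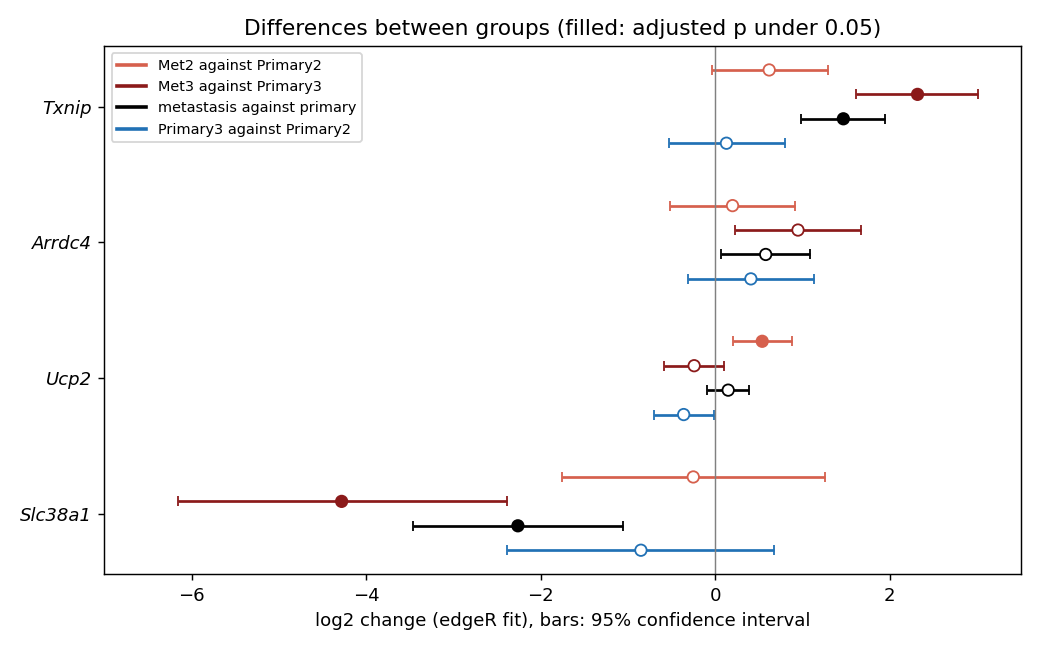
Fitted log2 changes of the 4 genes in 4 comparisons, with 95% intervals from edgeR's quasi-likelihood fit, and filled points where the adjusted p was under 0.05. Txnip lies at 2.32 and Slc38a1 at -4.28 in Met3 against Primary3, and no point is filled in Primary3 against Primary2.

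The primary organoids of rounds 2 and 3 were not named in the reason for the choice of genes. Earlier results of these data were known at that choice, so their comparison may not be fully independent of it. The log2 change of Primary3 relative to Primary2 was 0.13 for Txnip (95% interval -0.53 to 0.80) and 0.41 for Arrdc4 (-0.31 to 1.13). It was -0.36 for Ucp2 (-0.70 to -0.01) and -0.85 for Slc38a1 (-2.38 to 0.67). None of the 4 passed the threshold, with adjusted p-values of edgeR's test from 0.699 to 0.953. Ucp2 and Slc38a1 were lower in 3 of 3 Primary3 libraries than in all Primary2 libraries, as for 16.7% of genes in either direction. edgeR called 0 genes here, with 1063 at an unadjusted p under 0.05, while DESeq2 called 43 and limma-voom 1.

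The genes whose log2 CPM ran closest to each of the 4 over the 15 libraries are given as a description. All such values share the same libraries and the same group differences. Among the closest to Txnip of 12465 genes were Ccdc71l (r = 0.93), Ccdc186 (r = 0.90), Cdc42ep4 (r = 0.90) and Vps37c (r = 0.89). Ccdc71l averaged 73.3 ± 20.8 CPM in Met3, 35.0 ± 1.56 in Met1, 31.7 ± 10.1 in Met2, 14.2 ± 2.93 in Primary2 and 14.7 ± 3.74 in Primary3 (SD, n = 3 each), the same order of metastasis groups as Txnip. Arrdc4 ranked 456 on this list. Zfp397 (r = -0.93), Adat1 (r = -0.93) and Luc7l3 (r = -0.92) ran most opposite to Txnip.

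Closest to Arrdc4 were Osgin1 (r = 0.89), Per2 (r = 0.86), Rsph3a (r = 0.83), Serpinb1a (r = 0.83) and Lcn4 (r = 0.82), and Txnip ranked 62. Per2 encodes a repressor of the circadian clock. Rsl1 (r = -0.92), Zfp422 (r = -0.85) and Ppt2 (r = -0.85) ran most opposite. Closest to Ucp2 were Igsf11 (r = 0.93), Mpzl2 (r = 0.92), Clic6 (r = 0.92), Dennd6a (r = 0.91) and Rnf207 (r = 0.91). Rnf215 (r = -0.95), the ribosomal protein gene Rpl13 (r = -0.94) and Frat2 (r = -0.93) ran most opposite to it. Closest to Slc38a1 were Pcyox1l (r = 0.96), Rbms2 (r = 0.95), Smarcc1 (r = 0.95), Zfp82 (r = 0.94) and Klhl22 (r = 0.94), and most opposite Dnajc4, Tnni2 and Cdc42ep3 (r = -0.92 each). Ucp2 and Slc38a1 themselves had an r of 0.73, which was 0.36 once libraries were centred on their group means.

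The families and pathways of the 4 genes were followed in 12 gene lists, from which the 4 genes were left out. Of 181 list genes tested in metastasis against primary organoids of rounds 2 and 3, 40 were higher and 27 lower, or 37.0%, beside 30.4% of all genes. In Met3 against Met1, 7 were higher and 34 lower, or 22.7%, beside 23.4% of all genes. The 34 became 13 without Met1 replicate 2, 20 without Met1 replicate 3, 17 without Met3 replicate 1 and 18 without Met3 replicate 2. The median log2 change of all genes was 0.01 in both comparisons.

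Among the other alpha-arrestins, Arrdc3, which controls trafficking of adrenergic receptors, averaged 55.0 ± 11.4 CPM in Met2 against 14.3 ± 9.61 in Primary2, and 24.5 ± 12.4 CPM in Met3 against 19.6 ± 6.01 in Primary3 (SD, n = 3 each). Arrdc3 was called higher in Met2 against Primary2 (log2 1.94, edgeR adjusted p = 0.0267, range over alternatives 0.00111 to 0.338). It was not called in Met3 against Primary3 (log2 0.32, edgeR adjusted p = 0.680). With both rounds pooled it was called higher (log2 1.13, SE 0.34, edgeR adjusted p = 0.0258), the only one of 3 tested that was (33.3%, against 30.4% of all genes called). The pooled call was lost without Met3 replicate 2 (0.0711), Primary2 replicate 1 (0.0562) or 3 (0.0633) or Primary3 replicate 1 (0.0629), in a range over all alternatives of 0.00282 to 0.0711. Without Met2 replicate 1, Arrdc2 was called too (0.0399, range 0.0399 to 0.501). Arrdc3 was highest in Met1 and Met2, unlike Txnip and Arrdc4. Arrdc1 had a log2 change of 0.23 (SE 0.15) and Arrdc2 of 0.30 (SE 0.18), neither called, and Arrdc5 was at 0 in all but 1 library, with 1 count.

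The Mondo factor genes Mlxip and Mlxipl and their partner gene Mlx were not called. Over both rounds Mlxip, the gene of MondoA, had a log2 change of -0.09 (SE 0.14), its partner gene Mlx 0.28 (SE 0.13) and Mlxipl, the gene of ChREBP, was at 0.499 times its primary level (SE 0.40 on the log2 scale). The adjusted p-values of edgeR's test were 0.638, 0.114 and 0.0767, in that order, and single libraries moved the last 2 past the threshold: 0.0266 for Mlx without Primary3 replicate 1 (range over alternatives 0.0194 to 0.251), and 0.0151 for Mlxipl without Met2 replicate 3 (range 0.0151 to 0.203). Mlxip averaged 25.6 to 35.1 CPM over the groups and Mlxipl 0.327 to 0.742 CPM. Of 13 factors of the Mondo and Myc network, 4 were higher, 1 was lower and 8 were not called in metastasis organoids (38.5%, median log2 change 0.28). Over all genes, 30.4% were called.

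Max, the partner of Myc in this network, averaged 141 ± 4.90 CPM in Met2 against 78.8 ± 14.7 in Primary2. It averaged 101 ± 15.5 CPM in Met3 against 65.8 ± 1.35 in Primary3. Over both rounds the log2 change of Max was 0.73 (SE 0.11, edgeR adjusted p = 0.000727). Mxd1, a repressor that competes with Myc for Max, averaged 108 ± 88.8 CPM in Met2 against 12.7 ± 5.25 in Primary2, and 127 ± 80.0 CPM in Met3 against 17.6 ± 8.18 in Primary3 (SD, n = 3 each). It was 7.85-fold higher over both rounds (SE 0.48 on the log2 scale, edgeR adjusted p = 0.000877), without overlap between the groups. The other 3 called, Mnt and Myc higher and Mga lower, were close to the threshold. The 4 higher became 2 without Primary2 replicate 1. Mga lost its call without any 1 of Met2 replicates 1 and 2, Met3 replicates 1 and 2, Primary2 replicates 2 and 3 or the 3 Primary3 libraries (adjusted p over alternatives 0.0226 to 0.110). The count of lower genes became 2 without Met2 replicate 3.

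Among classic glucose-responsive targets of the Mondo factors, more were lower than higher in metastasis organoids, where Txnip was higher. Of 17 tested, 2 were higher and 8 lower over both rounds (58.8%, median log2 change -0.48, against 30.4% of all genes called). The 8 became 5 without Met2 replicate 2. The 2 became 1 without any 1 of Met2 replicate 1, Met3 replicate 2, Primary2 replicates 1 and 3 or Primary3 replicates 1 and 3. Me1, the cytosolic malic enzyme that makes NADPH, averaged 88.9 ± 16.9 CPM in Met2 against 168 ± 41.7 in Primary2, and 73.7 ± 16.6 CPM in Met3 against 226 ± 56.4 in Primary3 (log2 -1.27, SE 0.20, edgeR adjusted p = 0.000669). Scd1, a fatty acid desaturase, averaged 91.4 ± 39.1 CPM in Met2 against 139 ± 27.4 in Primary2, and 23.9 ± 7.64 CPM in Met3 against 117 ± 7.65 in Primary3 (log2 -1.45, SE 0.23, edgeR adjusted p = 0.000847).

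Gpd1, a glycerol-3-phosphate dehydrogenase, was lower too (log2 -1.36, SE 0.33, edgeR adjusted p = 0.00761), and so was Pklr, the liver-type pyruvate kinase (edgeR adjusted p = 0.00559), which had 0 counts in Met2, 7 in Met3, 30 in Primary2 and 62 in Primary3. In Met3 against Met1, 6 of the 17 targets were lower and 0 higher (35.3%, median log2 change -0.57, against 23.4% of all genes called). Without Met1 replicate 2 or Met3 replicate 1, 3 were lower. Scd1 (log2 -2.75, SE 0.35) and Me1 (log2 -1.85, SE 0.28) had the smallest p there, with edgeR adjusted p-values of 0.000849 and 0.00205. At an unadjusted p under 0.05, 5687 genes differed in that comparison.

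Slc2a1 and 9 of 23 glycolysis genes were higher in metastasis organoids. Slc2a1, which encodes GLUT1, the transporter that TXNIP and ARRDC4 act on, averaged 387 ± 114 CPM in Met2 against 178 ± 52.1 in Primary2 (SD, n = 3 each), and had 309, 383 and 428 CPM (lowest, median and highest) in Met3 against 111, 164 and 216 in Primary3. It was 2.23-fold higher over both rounds, without overlap (SE 0.20 on the log2 scale, edgeR adjusted p = 0.00130), and the log2 change of Met3 relative to Met1, which averaged 391 ± 59.5 CPM, was within its error (-0.07, SE 0.28). Of 6 glucose transporters tested, 1 was higher and 2 lower, Slc2a3 (log2 -3.34, SE 0.92) and Slc2a4 (log2 -2.03, SE 0.58), and Slc2a4 lost its call without Primary3 replicate 2 (0.0581, range over alternatives 0.0110 to 0.0581).

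Of 23 glycolysis genes, 9 were higher and 1 lower over both rounds (43.5%, median log2 change 0.26, against 30.4% of all genes called). Pkm, a pyruvate kinase, averaged 5736 ± 404 CPM in Met2 against 4116 ± 633 in Primary2, and 6193 ± 185 CPM in Met3 against 4004 ± 449 in Primary3 (log2 0.55, SE 0.09, edgeR adjusted p = 0.000760). Hk1, a hexokinase, was 2.06-fold higher (edgeR adjusted p = 0.00172) and Gapdh 1.49-fold higher (edgeR adjusted p = 0.00249). The 1 lower was Slc16a3, an exporter of lactate (log2 -1.44, SE 0.27, edgeR adjusted p = 0.00191), joined by another gene without Met2 replicate 1 or 3 or Primary2 replicate 1. Over the metastasis rounds Slc16a3 had means of 467 ± 49.0 CPM in Met1, 236 ± 116 in Met2 and 92.7 ± 32.8 in Met3 (SD, n = 3 each), and it was lower in Met3 than in Met1 (log2 -2.33, SE 0.39, edgeR adjusted p = 0.00268).

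Within single rounds the glycolysis calls rested on few libraries. In Met2 against Primary2, 5 were higher and 0 lower (21.7%, median log2 change 0.48, against 11.8% of all genes called), and the 5 became 0 without any 1 of Met2 replicate 2 and Primary2 replicates 1 and 3. In Met3 against Primary3, 4 were higher and 3 lower (30.4% of the list, median log2 change 0.32, against 19.1% of all genes called). The 4 became 1 without Primary3 replicate 1 and 2 without any 1 of Met3 replicates 1 and 2 or Primary3 replicate 3. The 3 became 1 without any 1 of Met3 replicates 1 and 2 or Primary3 replicates 2 and 3.

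Of the 23 glycolysis genes, 0 were higher and 5 lower in Met3 than in Met1 (21.7%, median log2 change -0.27, against 23.4% of all genes called). The 5 became 3 without any 1 of Met1 replicates 2 and 3 or Met3 replicates 2 and 3. Besides Slc16a3 they included Hk2, another hexokinase gene (log2 -1.21, SE 0.25, edgeR adjusted p = 0.00632), Pfkfb3, which makes an activator of phosphofructokinase (log2 -1.67, SE 0.39, edgeR adjusted p = 0.00987), and Pfkl, a phosphofructokinase gene (log2 -0.54, SE 0.15, edgeR adjusted p = 0.0202). Pfkl lost its call without any 1 of the same 4 libraries (range over alternatives 0.00318 to 0.0634).

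In the thioredoxin and peroxide defence list, 5 of 27 genes were higher and 3 lower over both rounds (29.6%, median log2 change 0.13), a share near the 30.4% of all genes. The 5 became 8 without Met2 replicate 1, and 3 without any 1 of Met2 replicate 2, Met3 replicate 2, Primary2 replicate 2 or Primary3 replicate 1. Txn1, the cytosolic thioredoxin that TXNIP binds, had a log2 change of 0.20 (SE 0.09, edgeR adjusted p = 0.114), and its mitochondrial counterpart Txn2 was called higher (log2 0.43, SE 0.11, edgeR adjusted p = 0.0103). Slc7a11, the cystine importer, averaged 64.9 ± 23.1 CPM in Met2 against 205 ± 31.5 in Primary2, and 55.9 ± 12.8 CPM in Met3 against 181 ± 31.8 in Primary3 (log2 -1.68, SE 0.23, edgeR adjusted p = 0.000321). Keap1, the adaptor that targets the NRF2 factor for degradation, was higher (log2 0.51, SE 0.07, edgeR adjusted p = 0.000387). In Met3 against Met1, Txn1 was higher, at 1060 ± 30.1 CPM in Met3 and 592 ± 81.2 CPM in Met1 (log2 0.84, SE 0.13, edgeR adjusted p = 0.00202).

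**Figure D4:**
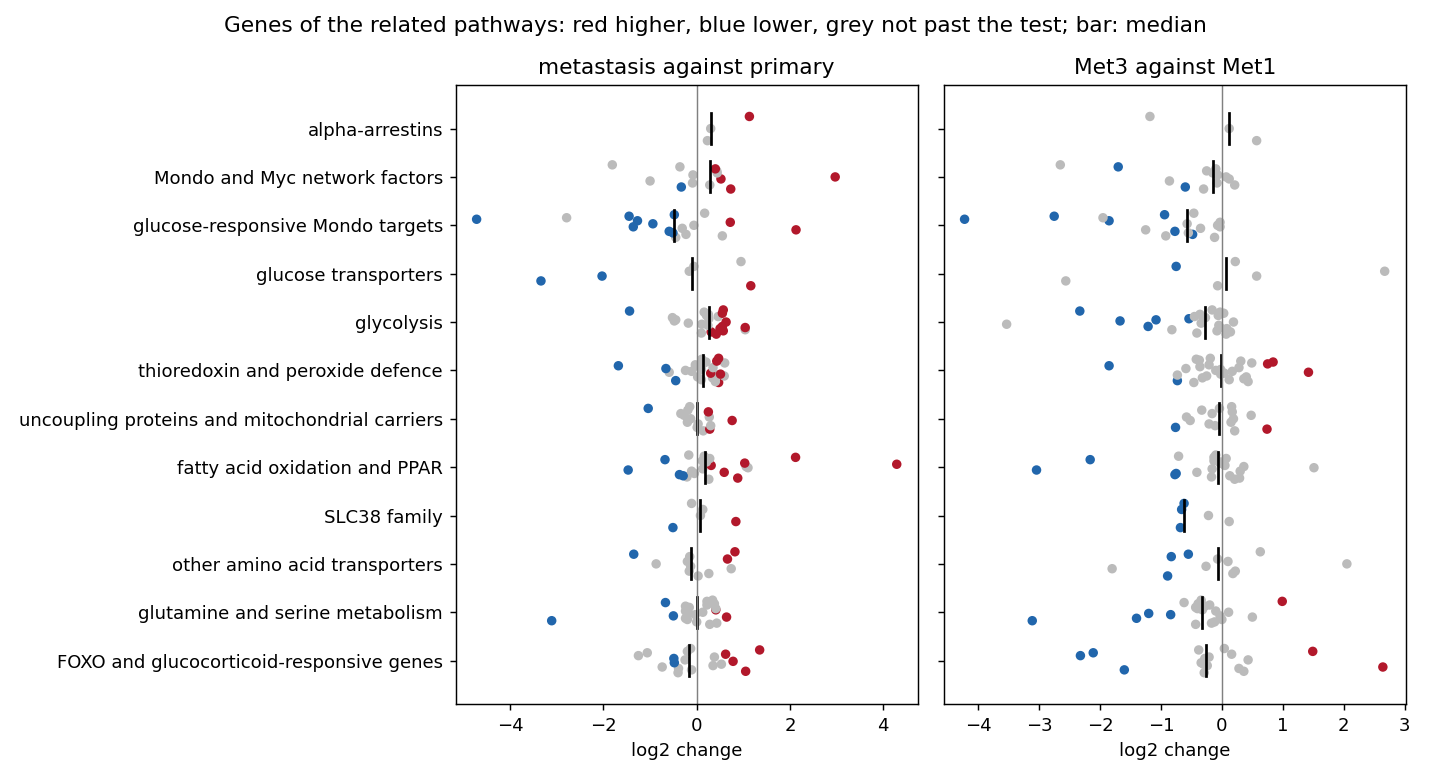
Fitted log2 changes of the genes in 12 lists, 1 point per gene, in metastasis against primary organoids of rounds 2 and 3 and in Met3 against Met1, red where higher and blue where lower at an edgeR adjusted p under 0.05, grey otherwise, with a bar at each list's median. The median of the Mondo targets lies at -0.48 and -0.57, and that of the glycolysis genes at 0.26 and -0.27.

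Ucp2 was the only abundant gene of its close family. Ucp1 had 1 count in all and Ucp3 at most 8 counts in any group. The related carriers Slc25a14 (log2 -0.13, SE 0.19), Slc25a27 (log2 -0.34, SE 0.31) and Slc25a30 (log2 -0.19, SE 0.09) were not called over both rounds. Of 15 carriers tested, 3 were higher and 1 lower (26.7%, median log2 change 0.01, against 30.4% of all genes called). The 3 became 1 without any 1 of Met2 replicate 3, Met3 replicates 1 and 2, Primary2 replicates 2 and 3 or Primary3 replicates 2 and 3. The 1 lower was Slc25a4, an ADP/ATP carrier, at 239.5 ± 77.4 CPM in Met2 against 371 ± 12.9 in Primary2 and 191 ± 51.3 CPM in Met3 against 523 ± 48.6 in Primary3 (log2 -1.04, SE 0.16, edgeR adjusted p = 0.000534).

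Of 22 genes of fatty acid oxidation and the PPAR pathway, whose ligands are known to induce Ucp2, 6 were higher and 4 lower over both rounds. That was 45.5%, against 30.4% of all genes called, with a median log2 change of 0.18. The 4 became 0 without Primary3 replicate 3, 1 without any 1 of Met2 replicate 2, Met3 replicate 3 or Primary2 replicate 2, and 2 without any 1 of Met2 replicate 3, Met3 replicates 1 and 2, Primary2 replicate 3 or Primary3 replicate 2. Pparg, a lipid-sensing nuclear receptor, averaged 67.7 ± 37.9 CPM in Met2 against 12.6 ± 8.60 in Primary2, and had 56.0 to 80.6 CPM in Met3 against 10.6 to 29.0 in Primary3 (log2 2.12, SE 0.39, edgeR adjusted p = 0.00186). Acadl, an acyl-CoA dehydrogenase, was 1.84-fold higher (edgeR adjusted p = 0.000636). In Met3 against Met1, 18.2% of the list was called, against 23.4% of all genes. There 4 of the 22 were lower and 0 higher, with 2 lower without Met1 replicate 2. Among them, Plin2, which coats lipid droplets, averaged 27.6 ± 5.93 CPM in Met3 and 123 ± 11.3 CPM in Met1 (log2 -2.16, SE 0.32, edgeR adjusted p = 0.00186), with Met2 between them at 56.2 ± 27.2 CPM. Angptl4, a secreted inhibitor of lipoprotein lipase, averaged 0.576 ± 0.486 CPM in Met3 and 4.80 ± 2.38 CPM in Met1 (log2 -3.04, SE 0.63, edgeR adjusted p = 0.00603).

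In the SLC38 family, Slc38a2, which encodes the related importer SNAT2, was higher in metastasis organoids over both rounds, where Slc38a1 was lower. It averaged 169 ± 63.9 CPM in Met2 against 124 ± 10.2 in Primary2, and 275 ± 86.4 CPM in Met3 against 117 ± 5.96 in Primary3 (log2 0.84 over both rounds, SE 0.22, edgeR adjusted p = 0.0118). Slc38a10 was lower, at 43.6 ± 2.29 CPM in Met2 against 66.4 ± 2.38 in Primary2 and 42.7 ± 7.85 CPM in Met3 against 56.9 ± 7.65 in Primary3 (log2 -0.51, SE 0.09, edgeR adjusted p = 0.00190). Those were the calls over both rounds among 5 tested. Slc38a6, Slc38a7 and Slc38a9 had log2 changes of 0.08 (SE 0.14), 0.13 (SE 0.15) and -0.11 (SE 0.14). By round, 0 of the 5 were higher and 1 lower in Met2 against Primary2. Slc38a2 was higher in Met3 against Primary3 (log2 1.23, edgeR adjusted p = 0.0173), with leave-one-out adjusted p-values of 0.0113 to 0.0652. Slc38a8 had 0 counts, and Slc38a3, Slc38a4, Slc38a5 and Slc38a11 had at most 16 counts in any group. In Met3 against Met1, 3 of the 5 were lower, Slc38a10 (log2 -0.68, SE 0.13, edgeR adjusted p = 0.00454) with Slc38a7 (0.0456) and Slc38a9 (0.0384), and 1 was lower without any single one of the 6 libraries.

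Of 11 other amino acid transporters, 2 were higher and 1 lower over both rounds (27.3%, median log2 change -0.13, against 30.4% of all genes). The 1 lower was Slc7a6, a transporter of cationic and large neutral amino acids, at 28.4 to 39.1 CPM in Met2 against 62.8 to 83.3 in Primary2 and 24.3 to 30.9 CPM in Met3 against 71.5 to 89.7 in Primary3 (log2 -1.35, SE 0.11, edgeR adjusted p = 1.51e-05). The 2 higher were Slc7a7 (log2 0.82, SE 0.16, edgeR adjusted p = 0.00248) and Slc7a1 (edgeR adjusted p = 0.0307), which lost its call without any 1 of Met2 replicates 1 and 3, Met3 replicate 1, Primary2 replicates 2 and 3 or Primary3 replicates 1 and 3. Of 21 genes of glutamine and serine metabolism, 2 were higher and 3 lower (23.8%, median log2 change 0.00, against 30.4% of all genes). Without Met2 replicate 1, 5 were higher. Gls2, a mitochondrial glutaminase, averaged 0.572 ± 0.108 CPM in Met2 against 3.62 ± 0.344 in Primary2, and 0.470 ± 0.493 CPM in Met3 against 5.57 ± 0.667 in Primary3 (log2 -3.11, SE 0.38, edgeR adjusted p = 0.000163). It was also lower in Met3 than in Met1, where it averaged 4.07 ± 0.442 CPM (log2 -3.11, SE 0.54, edgeR adjusted p = 0.00294).

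Txnip is also known to respond to FOXO factors and to glucocorticoids. Of 18 such genes, 4 were higher and 2 lower over both rounds (33.3%, median log2 change -0.17, against 30.4% of all genes called). The 4 became 2 without any 1 of Met2 replicate 3, Met3 replicates 1 and 2, Primary2 replicates 1 and 3 or Primary3 replicate 1. The 2 became 4 without Met2 replicate 1 and 1 without any 1 of Met3 replicates 1 and 3, Primary2 replicates 1 and 2 or Primary3 replicates 2 and 3. Relative to Met1, 2 were higher and 3 lower in Met3 (27.8%, median log2 change -0.26, against 23.4% of all genes called). Fkbp5, a chaperone gene induced by glucocorticoids, averaged 41.1 ± 12.7 CPM in Met3 and 6.58 ± 0.901 CPM in Met1 (log2 2.64, SE 0.58, edgeR adjusted p = 0.00763), but the primary groups stood higher still, at 70.1 ± 23.6 CPM in Primary2 and 64.3 ± 12.8 CPM in Primary3. Foxo4 was lower over both rounds (log2 -0.48, SE 0.10, edgeR adjusted p = 0.00308) and Sesn1 higher (log2 0.62, SE 0.16, edgeR adjusted p = 0.0105). Sgk1, a kinase gene induced by glucocorticoids, was the other gene called higher in Met3 than in Met1 (log2 1.49, SE 0.36, edgeR adjusted p = 0.0125), a call lost without Met3 replicate 2 (0.0530, the highest over alternatives). Sesn3, a sestrin gene, averaged 7.21 ± 2.77 CPM in Met3 against 31.3 ± 10.7 in Met1 (SD, n = 3 each; log2 -2.11, SE 0.64, edgeR adjusted p = 0.0314). Pik3ip1, which encodes an inhibitor of PI3 kinase, averaged 1.68 ± 0.997 CPM in Met3 against 8.41 ± 2.08 in Met1 (log2 -2.32, SE 0.73, edgeR adjusted p = 0.0380), and lost its call without any 1 of the 3 Met1 libraries and Met3 replicates 1 and 2 (range over alternatives 0.00592 to 0.110). The 3 lower became 0 without any 1 of Met1 replicates 2 and 3 or Met3 replicates 1 and 2, and 1 with the replicate number as a block.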

How the data were processed

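RNA-seq was made from 15 organoid libraries, grouped by sample title. The authors deposited gene-level estimated counts for 54418 Ensembl genes, quantified with Salmon 1.3.0 on mm10, per the submitters' processing notes. All values are whole numbers, 0 with a fractional part. Not given in the sources used here: annotation, summing to genes, rounding and use of strand. Symbols and positions come from GENCODE M21 (GRCm38), which matched 54166 genes. CPM use the library's count over the genes kept by the filter below, multiplied by the TMM factor. edgeR's filterByExpr kept 14925 genes, and quasi-likelihood tests were fitted on all 15 libraries (edgeR 4.0.16, limma 3.58.1, DESeq2 1.42.0, R 4.3.3), with Benjamini-Hochberg adjustment within a comparison. SE are log2 changes over the root of F. Correlations use log2 CPM with a prior count of 2. The 4 genes and the gene lists were chosen with earlier results of these data known. Named are every gene of the 4 genes' own families, up to 4 of each other list by smallest p in metastasis against primary and up to 4 in Met3 against Met1, and the 5 most alike and 3 most opposite genes, 1 of which is not reported here. Genes named at the edge of a count were chosen after their values were seen. No p was adjusted over a list alone, and no set test was run. Alternatives were other size factors, no filter, a CPM filter, DESeq2, limma-voom, only the groups compared, a replicate block, the ribosomal RNA share as a covariate, and each library left out.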

Additional observations from a re-analysis of the deposited data

How the results depend on the processing

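Of 328 alternative values for the 4 genes, 308 kept direction and side of the threshold, 8 lost and 7 gained a call and 5 changed sign. Adjusted p-values follow, and the cause was not tested. For Txnip all alternatives kept the calls, with leave-one-out ranges of 6.86e-05 to 0.00711 in Met3 against Primary3 and 3.12e-05 to 0.00230 over both rounds. Its uncalled change in Primary3 against Primary2 turned to -0.02 with the ribosomal RNA covariate (1.0) and without Primary3 replicate 3 (1.0), in a range of 0.900 to 1.0. For Arrdc4 in Met2 against Primary2 the covariate gave log2 -0.35 (0.716). In Met3 against Primary3 Arrdc4 was called with the covariate (0.0377) and under DESeq2 (0.0298), with a leave-one-out range of 0.0341 to 0.293, and over both rounds of 0.0369 to 0.184. Ucp2 in Met2 against Primary2 lost its call with no filter (0.0893), the covariate (0.424), only the groups compared (0.131) and some libraries left out (0.0335 to 0.137). Slc38a1 in that comparison ran from 0.00486 to 0.947 with a library left out, changing sign without Met2 replicate 2 (0.794) or 3 (0.905). In Met3 against Primary3 limma-voom gave Slc38a1 0.0503. DESeq2 called the difference between rounds for Txnip (0.0215) and Slc38a1 (0.00973), a contrast that contains the step from Met2 to Met3 used in the choice of genes. In Met3 against Met1 DESeq2 called 11 list genes higher in place of 7, and the 34 lower ran from 13 to 25 with a library left out.

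Of 1478 alternative values for 83 results on other named genes, 114 lost a call, 4 gained one and 4 changed sign: Arrdc3 in Met3 against Primary3 without Met3 replicate 2 (0.849, range 0.499 to 0.935) and, in metastasis against primary, Mlxip without Met2 replicate 2 (0.945, range 0.382 to 0.945), Slc25a14 without Met2 replicate 3 (0.997, range 0.450 to 0.997) and Slc38a6 without Met2 replicate 1 (0.908, range 0.469 to 0.974).

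Over all genes, the 1768 called in Met2 against Primary2 became 330 with the covariate, 215 with only the groups compared, 2830 under DESeq2 and 715 to 2150 with a library left out. The 2850 in Met3 against Primary3 became 1746 with the covariate and 1372 to 2319 with a library left out, and the 3499 in Met3 against Met1 became 1988 to 2702. For the difference between rounds, leave-one-out fits called 0 to 17 genes, and for Primary3 against Primary2 0 to 2. Same-numbered replicates of Met2 and Primary2 or Met3 and Primary3 deviated from their group means with correlations of -0.08 to 0.07. With 3 libraries per group, such values cannot show whether these replicates are paired, and the labels do not say. A replicate block changed no call of the 4 genes: for Txnip over both rounds the adjusted p under the block was 0.00152, and for Ucp2 in Met2 against Primary2 0.0374. At these depths Slc38a1 in Met3 rests on 54 counts.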
